A study of Homo sapiens with 9 samples.

Results

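The heterogeneous nuclear ribonucleoprotein (hnRNP) and serine/arginine-rich (SR) splicing factor genes were taken as every gene of the deposited gene table whose symbol starts with HNRNP, HNRPL, SFRS or SRSF. The rule found 41 of 20848 genes, of which 22 carry an hnRNP symbol and 19 an SFRS symbol. The table uses older symbols, so that SFRS1 to SFRS7 and SFRS9 are today's SRSF genes of the same number. SFRS2B is now SRSF8, SFRS11 is SRSF11 and SFRS13B is SRSF12. Another 8 SFRS symbols belong to SR-related genes with other names today, among them SFRS8 (SFSWAP), SFRS12 (SREK1), SFRS14 (SUGP2), SFRS15 (SCAF4), SFRS16 (CLASRP), SFRS18 (PNISR) and SFRS2IP (SCAF11). Of the 41 genes, 40 passed the filter on low counts and were tested. HNRNPCL1, a close copy of HNRNPC, had 0 reads in all 6 libraries. Its exon 2, with 1063 bases, shares its interval with another annotated gene, LOC649330, so the zeros of that exon do not give the level of the gene. Exon 1, with 45 bases, overlaps no other annotated gene and had 0 reads as well.

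The study asked how gene expression and splicing respond to knockdown of Musashi1, an RNA-binding protein encoded by MSI1, in U251 cells, and how this relates to where MSI1 binds RNA. U251 is an established human glioblastoma line. RNA-seq was done on 3 MSI1 knockdown samples and 3 control samples labelled wild type, and MSI1 iCLIP on 3 samples of wild-type cells. iCLIP crosslinks a protein to RNA with ultraviolet light, pulls it down with an antibody and maps the crosslinked nucleotides. The labels give neither the knockdown agent nor the treatment of the controls, and nothing states that the replicates were separate cultures, so the spread behind each p-value may be technical only.

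Both families act on pre-mRNA. SR proteins carry an RNA recognition motif and a domain rich in arginine and serine, bind exonic enhancers and help recruit the splicing machinery to nearby splice sites. The hnRNP proteins coat nascent transcripts, and several of them, such as the A/B group, silence exons by competing with SR proteins or by looping RNA. Many genes of both families regulate their own mRNA through alternative exons. MSI1 is a neural stem cell protein, known as a translational regulator, whose preferred site contains the trinucleotide UAG.

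Alternative exons of the hnRNP A/B and D groups are the best known isoform switches among these genes, and 4 of those in the deposited exon table are described here. They were chosen after the values had been seen. Their sequences, read from transcripts of GENCODE release 29, are given as DNA on the sense strand, with each TAG, the core of the MSI1 motif, in capitals. Each exon has a length divisible by 3 and adds residues without shifting the frame.
HNRNPA2B1 exon 2: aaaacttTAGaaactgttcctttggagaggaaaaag
HNRNPD exon 2: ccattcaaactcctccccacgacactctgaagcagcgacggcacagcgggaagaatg
HNRNPD exon 7: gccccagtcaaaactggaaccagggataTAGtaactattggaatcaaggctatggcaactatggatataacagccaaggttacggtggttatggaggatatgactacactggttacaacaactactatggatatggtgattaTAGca
HNRNPAB exon 7: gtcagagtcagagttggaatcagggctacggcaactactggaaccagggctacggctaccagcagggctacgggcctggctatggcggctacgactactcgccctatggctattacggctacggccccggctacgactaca

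The HNRNPA2B1 exon (hg18 chr7:26203976-26204011, minus strand) has 36 bases and turns hnRNP A2 into hnRNP B1 by adding 12 residues near the start of the protein. It holds 1 TAG, and 18.3% of 649 internal GENCODE exons of that length hold at least 1. HNRNPD, which encodes the AU-rich element binding protein AUF1, has a cassette near its start (chr4:83511705-83511761, minus strand, 57 bases, no TAG, against 32.2% of exons of that length with at least 1) and a cassette near its end (chr4:83496714-83496860, 147 bases, 2 TAG, against 53.1% of exons of that length with at least 1). The HNRNPAB exon (chr5:177569739-177569879, plus strand, 141 bases) encodes a related tyrosine- and glycine-rich stretch and holds no TAG, against 53.1% of exons of that length with at least 1. A TAG in these letters is a description, not a binding site.

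Libraries held between 32919299 and 47277016 reads in genes. On the first principal component, with 62.5% of the variance, control replicate 3 lay far from the other 5 libraries. Markers of a glioma line (VIM, NES, CD44, SOX2, EGFR, GFAP, S100B and FABP7) were all above 1 CPM (reads relative to library size) in all 6 libraries. Of the leukocyte markers 0 of 4 reached 1 CPM in any library. Of the neuronal, oligodendrocyte and endothelial markers 1 of 3 (SNAP25), 1 of 2 (MBP, at most 2.13 CPM) and 1 of 3 (VWF, at most 1.02 CPM) did, with STMN2 at 0. The summed neuronal markers stood at 3.56 to 4.57 CPM in knockdown libraries, against 1.17 to 2.67 CPM in control libraries, and their part in the results was not tested. All CPM values from here on are also scaled by TMM. MSI1 itself had 3.15, 5.11 and 2.26 CPM in knockdown replicates 1, 2 and 3, against 16.0, 17.7 and 7.59 CPM in control replicates 1, 2 and 3. The groups did not overlap, and edgeR's quasi-likelihood test gave −1.97 as the log2 fold change, with a standard error (SE) of 0.42 and an adjusted p of 0.0699. Blocking on replicate number in edgeR gave an adjusted p of 0.00279. In these bulk libraries, fewer cells with a transcript and less of it per cell cannot be told apart.

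The hnRNP and SR genes kept nearly the same share of the transcriptome. Together the 40 genes took 1.28%, 1.21% and 1.38% of all gene counts in knockdown replicates 1, 2 and 3, and 1.27%, 1.20% and 1.40% in control replicates 1, 2 and 3. The difference between replicate numbers within a group was larger than the difference between the groups. None of the 40 genes passed the threshold of 0.05 on the adjusted p of edgeR's quasi-likelihood test, against 1.67% of all 13856 genes tested. DESeq2 also called 0 of the 40, against 5.76% of all genes, and edgeR without control replicate 3 called 0, against 7.31%. At an unadjusted p under 0.05 each tool had 3 of the 40 (7.5%; 15.5% of all genes with edgeR). Blocking on replicate number, 3 genes fell and 0 rose, a share of 7.5% against 17.3% of all genes, of which 10.3% were lower and 7.04% higher. In that fit 10 of the 40 (25%) had an unadjusted p under 0.05, against 33.4% of all genes. Those 3 were SFRS4, SFRS13B and SFRS14.

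Changes in these genes were small in size. Their median absolute log2 fold change was 0.13, against 0.23 over all genes tested, and 1 of the 40 (2.5%), SFRS13B, had an absolute log2 fold change over 0.5, against 19.4% of all genes. Their median standard error was 0.15, against 0.23 over all genes. The 40 genes are also more highly expressed, with a median of 191 CPM in control cells, against 25.1 CPM over all genes. Sizes of change were not compared with genes of like expression, so they are not shown to be particular to these families. The 95% confidence interval lay within a 2-fold change either way for 39 of the 40 genes (97.5%, against 63.3% of all genes), with SFRS13B as the exception. The median log2 fold change was −0.07, against −0.04 over all genes, and 27 of the 40 values were below 0. With DESeq2 size factors, which moved the median of all genes by 0.05, the split was 22 below and 18 above 0.

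**Figure D1:**
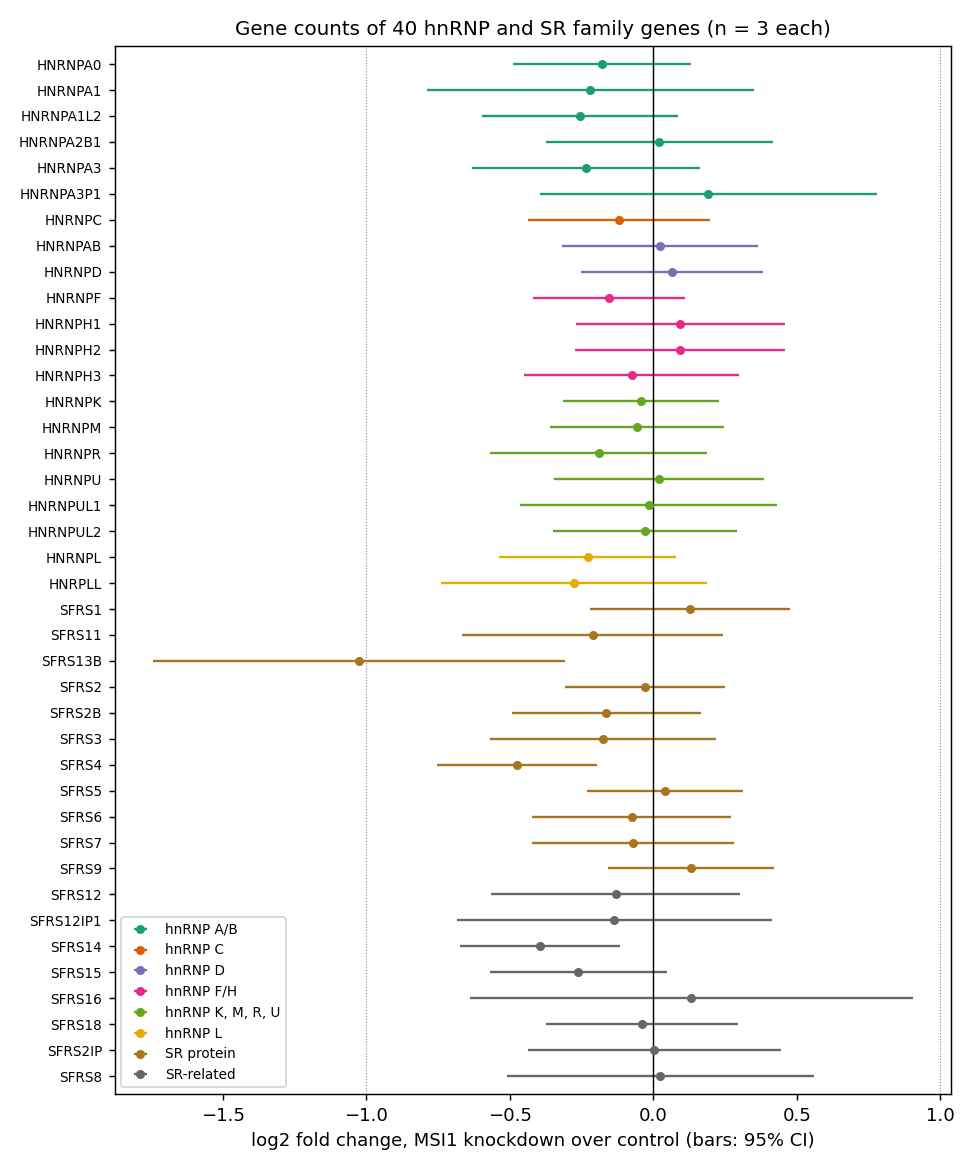
Fitted log2 fold change of gene counts (x axis, MSI1 knockdown over control) for the 40 tested hnRNP and SR genes, grouped by family down the page. Points are estimates and bars are 95% confidence intervals from 3 libraries per group. SFRS13B at −1.03 is the only gene beyond 0.5, and the intervals of SFRS4, SFRS13B and SFRS14 lie below 0.

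Among the 11 SR protein genes, SFRS4 (SRSF4) had the lowest p. SFRS4 encodes a long SR protein that promotes exon inclusion and lies at chr1:29346838-29381224 on the minus strand. It had 131, 126 and 121 CPM in knockdown replicates 1, 2 and 3, against 184, 176 and 164 CPM in control replicates 1, 2 and 3. Every knockdown library was below every control library, and the difference within each of the 3 replicate pairs was much the same, at −0.50, −0.48 and −0.45 on the log2 scale. The fitted log2 fold change was −0.47 (SE 0.12), with an adjusted p of 0.101 in edgeR and 0.00924 with the block. Without control replicate 3 the log2 fold change was −0.46 (adjusted p = 0.0673).

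SFRS13B (SRSF12) encodes a small SR protein that is low in most tissues, and lies at chr6:89862397-89884519 on the minus strand. It had 2.49, 2.60 and 4.12 CPM in knockdown replicates 1, 2 and 3, against 5.04, 5.37 and 8.37 CPM in control replicates 1, 2 and 3. The groups did not overlap, replicate 3 was the highest library of each group, and the log2 difference within each pair was −1.01, −1.05 and −1.02. The fitted log2 fold change was −1.03 (SE 0.31, adjusted p = 0.159 in edgeR, 0.00924 with the block). Without control replicate 3 the log2 fold change was −0.70 (adjusted p = 0.164 in edgeR). SFRS13B was the lowest expressed SR protein gene, at 0.853 CPM per kilobase of exon in knockdown cells against 1.74 in control cells.

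The other 9 SR protein genes had log2 fold changes between −0.21 and 0.13. SFRS9 (SRSF9) was the only gene of either family whose knockdown libraries were all above its control libraries, at 160, 156 and 155 CPM against 151, 128 and 150.5 CPM. This is 1 of 40 genes (2.5%), against 8.73% of all genes, and its log2 fold change of 0.13 had an adjusted p of 0.719 in edgeR. SFRS1 (SRSF1), the founding SR protein and a known proto-oncoprotein, had 574, 507 and 624 CPM in knockdown libraries and 513, 454 and 593 CPM in control libraries. Its groups overlapped, with a log2 fold change of 0.13 (95% interval −0.22 to 0.48). SFRS2 (SRSF2), which binds exonic enhancers and is mutated in myeloid disease, was at −0.03, SFRS3 (SRSF3), which also acts in mRNA export, at −0.18, and SFRS7 (SRSF7) at −0.07. SFRS5 was at 0.04, SFRS6 at −0.07, SFRS11 at −0.21 and the retrogene SFRS2B at −0.16. The SFRS2B libraries did not overlap (31.9, 31.5 and 32.2 CPM in knockdown cells, 36.1, 32.7 and 38.3 CPM in control cells), but the adjusted p was 0.683 in edgeR.

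Of the 8 SR-related genes, 5 had a log2 fold change below 0. SFRS14 (SUGP2), a protein with G-patch and SURP domains linked to the spliceosome, lies at chr19:18962697-19005380 on the minus strand. It had 149, 156 and 139 CPM in knockdown replicates 1, 2 and 3, against 201, 201 and 183 CPM in control replicates 1, 2 and 3. The groups did not overlap and the pairs differed by −0.43, −0.36 and −0.39. Its log2 fold change was −0.39 (SE 0.12, adjusted p = 0.164 in edgeR, 0.0149 with the block). SFRS15 (SCAF4), which binds the tail of RNA polymerase II and acts in the choice of polyadenylation sites, had 57.7, 62.5 and 55.8 CPM in knockdown libraries, against 72.6, 71.5 and 66.7 CPM in control libraries. Its groups were also apart, with a log2 fold change of −0.26 that did not pass the test with the block (adjusted p = 0.0856) or without it (adjusted p = 0.417 in edgeR). The remaining SR-related genes lay between −0.14 (SFRS12IP1) and 0.13 (SFRS16), and all of them had overlapping groups. SFRS16 (CLASRP), which binds a CLK kinase of SR proteins, was the most variable of them, at 14.9, 20.2 and 12.2 CPM in knockdown libraries and 17.2, 17.5 and 8.34 CPM in control libraries.

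**Figure D2:**
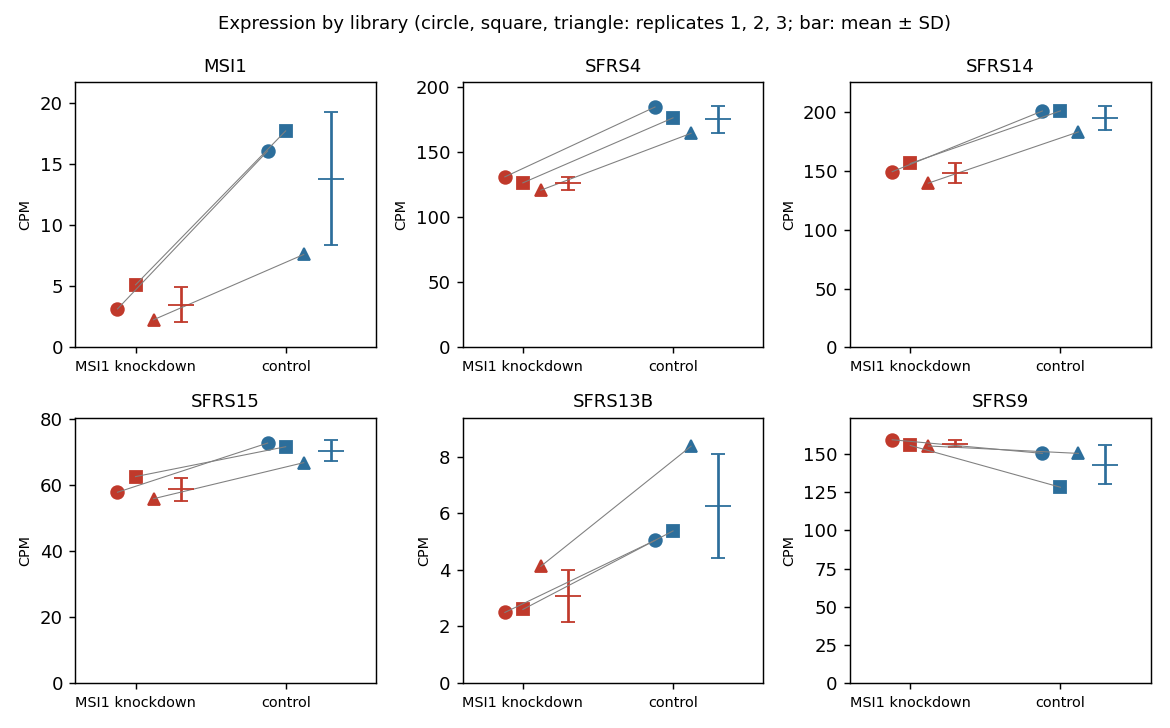
Expression in CPM (y axis, from 0) of MSI1 and of 5 SR or SR-related genes in the 3 MSI1 knockdown and the 3 control libraries. Symbols mark replicate numbers, grey lines join libraries of the same number, and bars show the mean ± SD. For SFRS4, SFRS14, SFRS15 and SFRS13B each knockdown library lies below each control library, and for SFRS9 each lies above.

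The hnRNP A/B genes include the most abundant member. HNRNPA2B1, whose protein binds UAG-rich RNA and sorts microRNAs, stood at 576 CPM per kilobase of exon in knockdown cells and 568 in control cells. Its libraries had 2065, 1899 and 2436 CPM in knockdown cells, against 1999, 1801 and 2507 CPM in control cells. The groups overlapped in full, and replicate 3 was the highest in each (log2 fold change 0.02, 95% interval −0.37 to 0.42). HNRNPA0, HNRNPA1 and HNRNPA3 had log2 fold changes of −0.18, −0.22 and −0.23, with overlapping groups and adjusted p-values of 0.618, 0.766 and 0.607 in edgeR. Without control replicate 3 HNRNPA3 was at −0.01 and HNRNPA1 at 0.13. HNRNPA1L2 had 27.7, 27.7 and 29.7 CPM in knockdown libraries, against 34.4, 30.7 and 36.5 CPM in control libraries. These did not overlap, with a log2 fold change of −0.26 (adjusted p = 0.482 in edgeR). HNRNPA3P1 had 4.18, 2.86 and 3.07 CPM in knockdown libraries, against 2.43, 2.98 and 3.45 CPM in control libraries. Its groups overlapped, and its log2 fold change of 0.19 was the highest of the 40 genes (adjusted p = 0.811 in edgeR). HNRNPA1L2 and HNRNPA3P1 are retrocopies of HNRNPA1 and HNRNPA3, so how reads were divided between each copy and its parent is uncertain.

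The count of HNRNPA1 rests on only part of the gene. Of its 11 exons, 9 had 0 reads in all 6 libraries, and each of the 9 shares its interval with an exon annotated to a second gene, HNRPA1L-2. The HNRNPA1 values above therefore come from the other 2 exons, and its 66.3 CPM per kilobase in control cells understates its level. Likewise SFRS5 exon 1, which overlaps another annotated gene, had 0 reads in all 6 libraries.

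The other hnRNP genes did not pass the test in either direction. HNRNPC, which binds uridine tracts and masks cryptic exons, had 821, 691 and 834 CPM in knockdown libraries and 922, 770 and 855 CPM in control libraries (log2 fold change −0.12). HNRNPD and HNRNPAB were at 0.06 and 0.02. HNRNPF and HNRNPH1, which bind guanine runs, were at −0.15 and 0.09. HNRNPH2 and HNRNPH3 were at 0.09 and −0.08. The HNRNPF groups were apart, at 510, 518 and 466 CPM in knockdown libraries against 573, 546 and 543 CPM in control libraries, and its adjusted p was 0.611 in edgeR. HNRNPK, which binds cytosine-rich RNA, HNRNPM, HNRNPU, a nuclear scaffold protein, HNRNPUL1 and HNRNPUL2 all lay between −0.06 and 0.02, and HNRNPR was at −0.19. HNRNPL and HNRPLL, which bind CA repeats, were at −0.23 and −0.27. Without control replicate 3 HNRNPR was at −0.02 and HNRPLL at −0.05. HNRNPL had 285, 289 and 274 CPM in knockdown libraries, against 353, 354 and 285 CPM in control libraries, so that control replicate 3 was close to the knockdown libraries while the other controls were above them.

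In all, 8 of the 40 genes (20%) had libraries that did not overlap between the groups, against 22.8% of all genes tested. Lower in each knockdown library were 7 of them, SFRS4, SFRS13B, SFRS14, SFRS15, SFRS2B, HNRNPA1L2 and HNRNPF, a share of 17.5% against 14.1% of all genes. Within replicate pairs, 20 of the 40 genes were lower in the knockdown library of every pair, against 32.4% of all genes, and 4 were higher in every pair, against 23.5%. Many of these paired differences were near 0, and with DESeq2 size factors the counts were 14 lower and 5 higher, against 27.2% and 28% of all genes. Control replicate 3 was the highest of the 6 libraries for 20 of the 40 genes (50%), against 34.2% of all genes.

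The other genes of the splicing machinery were described with lists of 104 genes in the table, of which 98 were tested. They comprise other hnRNP proteins, SR-related proteins, the kinases and importins of SR proteins, the core of splice site recognition and other splicing regulators. None passed the adjusted threshold of edgeR's quasi-likelihood test, against 1.67% of all genes, while 7 (7.14%) had an unadjusted p under 0.05, against 15.5% of all genes. DESeq2 called 2, both higher (2.04%, against 3.19% of all genes). With the block 6 rose (6.12%, against 7.04%) and 7 fell (7.14%, against 10.3%), so that the calls were no more frequent in these lists than over all genes. ROD1 (PTBP3), a paralog of the exon silencer PTBP1, had 230, 225 and 282 CPM in knockdown libraries, against 95.5, 96.7 and 149 CPM in control libraries. Each knockdown library lay above the highest control library, with a log2 fold change of 1.11 (SE 0.21, adjusted p = 0.0536 in edgeR, 0.00236 with the block). SNRPG, a component of the Sm ring, was at 59.7 ± 8.33 CPM in knockdown cells and 32.6 ± 6.70 in control cells (SD, n = 3 each, log2 fold change 0.87, adjusted p = 0.0831 in edgeR, 0.00421 with the block). CELF1, which binds GU-rich RNA, fell to 342 ± 10.7 CPM in knockdown cells, against 487 ± 25.1 in control cells (SD, n = 3 each, log2 fold change −0.51, adjusted p = 0.0764 in edgeR, 0.00695 with the block). SRPK1, the cytoplasmic kinase that phosphorylates SR proteins, was at −0.36 with overlapping groups (adjusted p = 0.429 in edgeR, 0.0253 with the block). The other genes called with the block were FUBP1, ELAVL1, PCBP1 and DAZAP1, which rose, and CELF2, RBM9, BCLAF1, LUC7L2 and SF3A3, which fell. Without the block their adjusted p in edgeR ran from 0.167 (FUBP1) to 0.531 (PCBP1).

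Exon use was compared as the share of an exon in the summed counts of its gene's tested exons. Of 377 tested exons in these genes, 0 were called by edgeR's diffSpliceDGE, which sets an exon against the rest of its gene, as were 0 of all 123109 exons. With edgeR 1 of the 377 exons (0.265%), HNRNPA3 exon 1, had an unadjusted p under 0.05, against 0.214% of all exons. With the block 0 were called, against 0.00812% of all exons, and limma's diffSplice also called 0. Exon shares did not overlap between the groups for 24 of the 377 exons (6.37%), against 7.67% of all exons. Higher in knockdown cells were 11 of them (2.92%, against 3.51%) and lower 13 (3.45%, against 4.16%). Without control replicate 3 it was 63 (16.7%, against 18% of all exons), with 24 higher (6.37%, against 7.75%) and 39 lower (10.3%, against 10.2%).

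Among those 24, the lowest p belonged to HNRNPUL1 exon 1, which held 0.0513%, 0.0582% and 0.0722% of the gene's exon counts in knockdown libraries, against 0.0969%, 0.109% and 0.146% in control libraries. It rests on 10 to 23 reads per library. SFRS18 exon 9 held 3.86%, 3.43% and 3.84% in knockdown libraries, against 4.68%, 4.34% and 5.61% in control libraries, and its neighbour exon 8 was lower as well, at 5.94% ± 0.245 against 7.11% ± 0.647 (SD, n = 3 each). SFRS18 encodes PNISR, an SR-related protein of nuclear speckles. The last exon of SFRS2IP, 3064 bases long, held 26.1% ± 1.11 of counts in knockdown cells and 22.3% ± 1.59 in control cells (SD, n = 3 each). SFRS8 exon 3, in a gene whose fly homolog suppresses white-apricot, held 5.03% ± 0.182 in knockdown cells and 6.40% ± 0.504 in control cells (SD, n = 3 each). SFRS12 exon 6 held 5.32% ± 0.134 in knockdown cells and 6.29% ± 0.374 in control cells, and SFRS11 exon 11 held 6.73% ± 0.214 in knockdown cells and 5.66% ± 1.13 in control cells (SD, n = 3 each). HNRNPA1L2 exon 2 held 6.64% ± 0.875 in knockdown cells and 8.69% ± 1.24 in control cells (SD, n = 3 each). The adjusted p was 1 for each of these 8 exons by edgeR's diffSpliceDGE.

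The 4 cassette exons shown above did not differ between the groups beyond the spread of the libraries. The B1 exon of HNRNPA2B1 held 0.429%, 0.415% and 0.327% of the gene's exon counts in knockdown replicates 1, 2 and 3, against 0.473%, 0.467% and 0.190% in control replicates 1, 2 and 3. Per base it was covered at 17.5% of the density of the median exon of the gene. Control replicate 3 had the lowest share of the 6 libraries. HNRNPD exon 2 stood at 3.03% ± 0.429 in knockdown cells and 3.13% ± 0.315 in control cells, and HNRNPD exon 7 at 5.58% ± 0.646 and 5.10% ± 0.418 (SD, n = 3 each). HNRNPAB exon 7 stood at 5.58% ± 1.23 in knockdown cells and 5.03% ± 1.73 in control cells (SD, n = 3 each). The adjusted p was 1 for all 4 by edgeR's diffSpliceDGE.

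**Figure D3:**
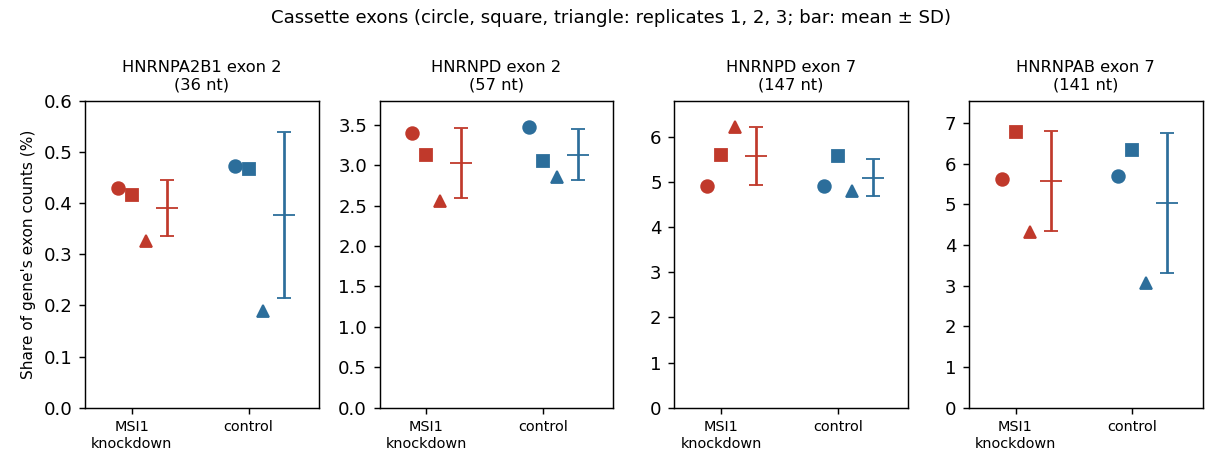
Share of the gene's exon counts (y axis, %, from 0) in 4 cassette exons of hnRNP genes, in 3 MSI1 knockdown and 3 control libraries. Symbols mark replicates and bars show the mean ± SD. The groups overlap in each panel, and control replicate 3 (triangle) is the lowest library for HNRNPA2B1 exon 2, HNRNPD exon 7 and HNRNPAB exon 7.

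Internal exons covered at under 25% of the density of their gene's median exon numbered 10. Besides the B1 exon they were exon 2 of HNRNPAB, HNRNPK, HNRNPL, HNRNPUL1, SFRS11 and SFRS12, exons 13 and 14 of SFRS16, and exon 14 of HNRNPM. HNRNPM exon 14, with 803 bases, held 9.38%, 14.2% and 8.11% of counts in knockdown libraries, against 10.3%, 10.8% and 2.61% in control libraries. HNRNPK exon 2 held 0.825%, 1.17% and 0.737% in knockdown libraries, against 0.808%, 0.881% and 0.331% in control libraries. In both, control replicate 3 was the lowest library and the other controls lay within the knockdown range. SFRS12 exon 2 had at most 7 reads in any library and was not tested.

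First exons carried the most visible differences between libraries, and in most of these genes control replicate 3 had the lowest share. With the block, 20 of the 377 exons had an unadjusted p under 0.05 (5.31%, against 1.96% of all exons), of which 18 were higher in knockdown cells (4.77%, against 1.58%). First exons made up 10 of the 20 (50%), against 44.9% of such exons over all genes, and those 10 were 32.3% of the 31 tested first exons, against 14.1% of all tested first exons. These shares were not set beside exons of genes of like expression, so they are not shown to be particular to these families. HNRNPH1 exon 1 was one of the 10 first exons. It held 0.817%, 0.762% and 0.379% in knockdown replicates 1, 2 and 3, against 0.634%, 0.478% and 0.162% in control replicates 1, 2 and 3. HNRNPC exon 1 held 4.30%, 3.92% and 1.97% in knockdown libraries, against 4.30%, 3.29% and 0.256% in control libraries. SFRS2 exon 1, which was not among the 10, held 7.09%, 12.9% and 6.05% in knockdown libraries, against 6.60%, 9.25% and 0.243% in control libraries. In HNRNPH1, HNRNPC and SFRS2 control replicate 3 was the lowest library by far. HNRNPA3 exon 1, also among the 10, held 0.735%, 0.745% and 0.327% in knockdown libraries, against 0.450%, 0.514% and 0.193% in control libraries. HNRNPUL1 exon 1, another of them, was lower in knockdown cells and highest in control replicate 3. Without control replicate 3 the log2 difference from the rest of the gene was 0.29, 0.19 and 0.13 for HNRNPA3, HNRNPH1 and SFRS2. It was −0.19 for HNRNPC and −0.77 for HNRNPUL1.

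Over the 31 genes with a tested first exon, the median share was 1.89%, 2.69% and 1.71% in knockdown replicates 1, 2 and 3, against 2.12%, 2.57% and 0.618% in control replicates 1, 2 and 3. Control replicate 3 was the lowest library for 27 of the 31 (87.1%), against 75.6% of 7676 genes. The exceptions were HNRNPH2, HNRNPUL1, SFRS14 and SFRS18. The fitted log2 difference of exon 1 against the rest of its gene was above 0 for 23 of the 31, against 6057 of 7676 genes. The median difference was 0.23, against 0.22 over all genes. Without control replicate 3 the difference was above 0 for 10 of the 31, against 3322 of 7676 genes. Its median was then −0.17, against −0.04 over all genes. Also without that library, first exon shares were lower in each knockdown library than in both controls for 7 of the 31 genes (22.6%, against 6.84% of all genes) and higher for 0 (against 5.12%). Those 7 were HNRNPAB, HNRNPL, HNRNPUL1, HNRNPUL2, SFRS2IP, SFRS3 and SFRS4. Exon 1 had only 4 to 23 reads per library in HNRNPL, 4 to 54 in HNRNPAB and 10 to 23 in HNRNPUL1. The shares of 22.6% and 6.84% were not taken for genes of like expression. With all 6 libraries 1 gene was lower (HNRNPUL1, against 0.886% of all genes) and 0 were higher (against 3.75%). The direction of the median difference therefore turned when that library was left out with its partner, knockdown replicate 3, kept in. Within replicate pairs the first exon share was higher in the knockdown library for 10, 21 and 28 of the 31 genes in pairs 1, 2 and 3 (32.3%, 67.7% and 90.3%, against 43%, 70.2% and 85.9% of all genes). It was higher in all 3 pairs for 8 genes (25.8%, against 27.1% of all genes), which were HNRNPA3, HNRNPC, HNRNPH1, HNRNPK, HNRNPM, HNRPLL, SFRS2 and SFRS8. It was lower in all 3 pairs for 2, HNRNPH2 and HNRNPUL1 (6.45%, against 3.83%). In pairs 1 and 2 alone it was higher in both for 9 genes and lower in both for 9. Over all 7676 genes these counts were 2361 and 1342.

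**Figure D4:**
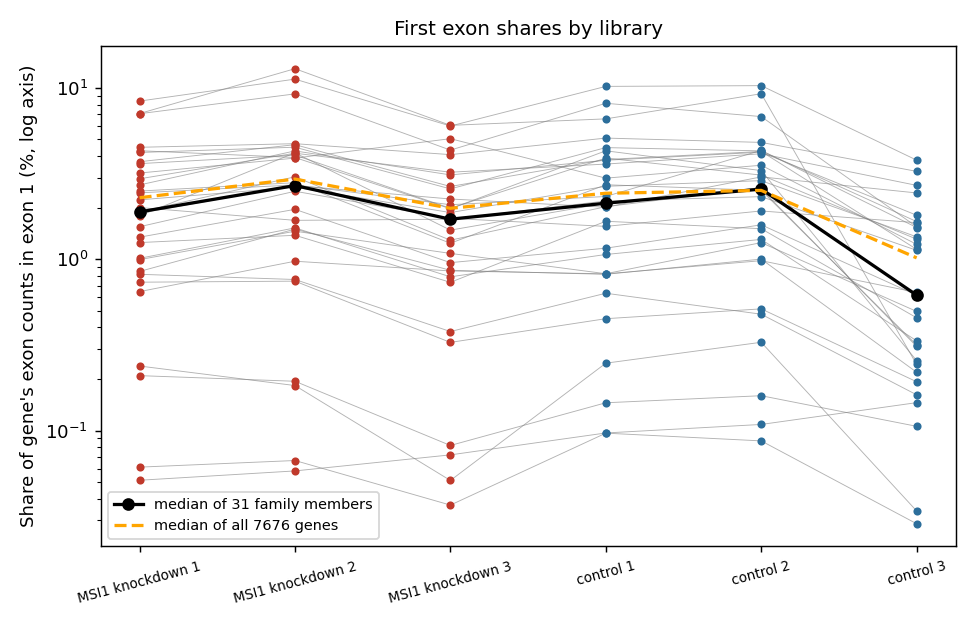
Share of the gene's exon counts in exon 1 (y axis, %, log axis) in each of the 6 libraries for 31 hnRNP and SR genes. Points and thin lines are genes, the black line is their median and the dashed line the median of 7676 genes. The family median is 0.618% in control replicate 3 and between 1.71% and 2.69% in the other 5 libraries.

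MSI1 iCLIP sites were found in almost all of these genes. The 3 deposited lists held 1746795, 145718 and 208722 single-nucleotide sites, so list 1 outweighs the others. Sites on the gene's strand and inside its span were found for 39 of the 40 tested genes (97.5%) in list 1, against 93.8% of all genes. List 2 had sites in 39 (97.5%, against 70.5%) and list 3 in 37 (92.5%, against 76.6%). The median number of sites per gene was 75.5, 10 and 12 in lists 1, 2 and 3, against 23, 2 and 3 over all genes. Over the 2223 genes at or above the family's lower quartile in control CPM (113 CPM), the medians were higher than in the family, at 111, 12 and 18. HNRNPA3P1 had none in any list, and SFRS16 and SFRS13B had none in list 3. The genes with the highest numbers of sites in list 1 were HNRNPF (665), HNRNPC (613) and HNRNPA2B1 (383). In list 1, 32.6% of the 4989 sites in these genes lay in exons and 25.2% in last exons, against 14.6% and 11.1% over all genes. These shares were not set beside genes of like expression or length. SFRS1 had 190 of its 197 list 1 sites in exons, 189 of them in its last exon, while SFRS8 had 1 of its 214 in an exon.

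Positions found at the same nucleotide in all 3 lists are the most repeatable sites. Such a position was present in 8 of the 40 genes (20%, 95% exact binomial interval 9.05% to 35.6%, for counting error only), against 6.37% of all 13856 genes. These genes are also highly expressed. Among the 2223 genes at or above the lower quartile of the family in control CPM (113 CPM), 16.3% had a shared position, so the share of the family is near that of genes of like expression. In exons alone 5 of the 40 had a shared position (12.5%, against 2.48% of all genes). This exonic share was not taken for genes of like expression. Counting positions in at least 2 lists there were 29 (72.5%, against 41.2% of all genes and 76.2% of the genes of like expression).

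The 8 genes held 14 shared positions. HNRNPF had 4, all in a stretch of 7 nucleotides of an intron (chr10:43221121-43221127, minus strand), between 2044 and 2050 nucleotides from the nearest exon edge. SFRS1 had 2 in its last exon (chr17, positions 53435377 and 53435917). HNRNPK and HNRNPR had 2 each, and HNRNPU and HNRNPD 1 each, all in the last exon. SFRS11 and SFRS8 had 1 each, in introns. The authors' p-values at these positions were never low in all lists. The lowest single value was 0.0564, for HNRNPD in list 2. Limited to sites with an authors' p-value of at most 0.05 in each list, 0 of the 40 genes had a shared position, against 0.375% of all genes.

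**Figure D5:**
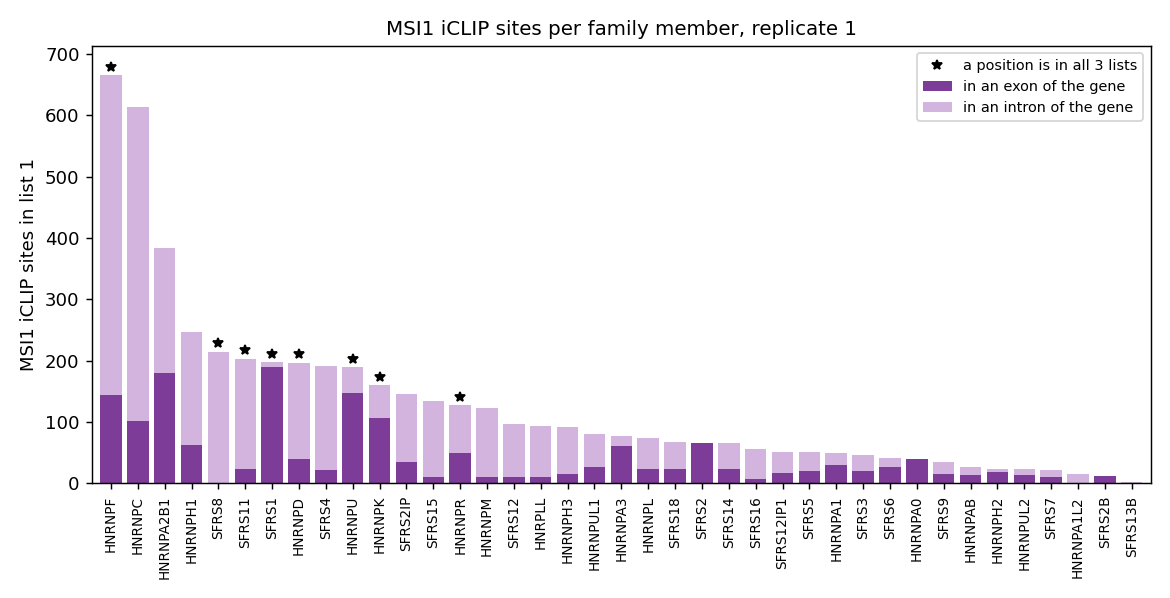
MSI1 iCLIP sites in list 1 (y axis, number of single-nucleotide sites) for the 39 hnRNP and SR genes with at least 1. Bars are split into exonic and intronic sites, and a star marks the 8 genes with a position found in all 3 lists. HNRNPF leads with 665 sites, and in SFRS1 nearly all of 197 sites are exonic.

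Whether changes in counts relate to iCLIP sites was not tested. The 8 genes with shared iCLIP positions, HNRNPF, SFRS1, HNRNPK, HNRNPR, HNRNPU, SFRS11, HNRNPD and SFRS8, had log2 fold changes between −0.21 and 0.13. Of the 3 genes called with the block, SFRS4 had 191, 15 and 23 sites in lists 1, 2 and 3, SFRS14 had 65, 6 and 6, and SFRS13B had 2, 1 and 0. None of the 3 had a shared position, against 20% of the 40 genes and 6.37% of all genes. Of the cassette exons, the B1 exon held 2 sites in list 1 and 0 in lists 2 and 3, and the other 3 exons held 0 in every list.

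Promoters of these genes were described from RefSeq (GRCh38.p14), over 300 bases from 250 before to 50 after the start, for the 36 genes with an entry. Their median GC content was 63.8%, against 58.3% over 27305 promoters, and their median number of CpG dinucleotides was 29 against 14. The letters GGGCGG, on either strand, were present for 58.3% of the genes, against 44.6% of all promoters. CCAAT was present for 47.2%, against 35.7%, and TATAAA for 16.7%, against 11.95%. These values were not set beside promoters of genes of like expression, so they are not shown to be particular to these families. A match is a description of the letters only.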

How the data were processed

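RNA-seq of 3 MSI1 knockdown and 3 control samples and MSI1 iCLIP of 3 wild-type samples of U251 cells were analysed, grouped by their titles. The authors deposited raw read counts per gene and per exon for each RNA-seq sample, and for each iCLIP sample a list of single-nucleotide sites with the authors' own p-value per site. The genome build was hg18, per the submitters' processing notes, with aligner, read counter, strand setting and site caller not given in the sources used here. Protocol text in the labels also has replicates pooled before sequencing, although each sample has its own values.

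Genes were fitted over the whole table with edgeR 4.0.16 (TMM, filterByExpr, quasi-likelihood test, Benjamini-Hochberg adjustment, threshold 0.05; limma 3.58.1, R 4.3.3), and exons with diffSpliceDGE, whose coefficients were turned into log2 values. DESeq2 1.42.0 was the alternative. The tests were tried on simulated counts with a fixed spread and no library set apart. Control replicate 3 does stand apart here, so that trial does not show how the tests do on these data. CPM are TMM-scaled counts, per kilobase of summed exon length where levels of genes are compared, and paired ratios use CPM plus 0.01. Deviations of libraries with the same replicate number correlated at 0.32, 0.73 and 0.75, all above 0.1, so the replicate numbers of the titles were treated as pairs, although knockdown replicate 2 also correlated with control replicate 1, at 0.49. iCLIP sites were assigned by position and strand. Reads of overlapping genes cannot be assigned with certainty. Cassette exons were matched to GENCODE release 29 by gene, length and flanking exon lengths, and 1 further cassette exon is not reported here. Every tested member was accounted for, and values per library are given for MSI1, for members called with the block and for members whose counts do not overlap between the groups. Exons are named where they are among the 8 of lowest p of those whose shares do not overlap, and other examples were chosen after their values were seen. Members and lists were chosen with earlier results of these data known.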

Additional observations from a re-analysis of the deposited data

How the results depend on the processing

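The count of called hnRNP and SR genes was 0 with edgeR, DESeq2, DESeq2 size factors, no filter on low counts and each library left out, and 3 with the replicate block. The titles number the replicates but do not state that they are pairs. The block changed no other call among these genes than SFRS4, SFRS13B and SFRS14, and raised the calls among all genes from 232 to 2398. The count of called exons was 0 under each alternative, the block and limma included. Among the other splicing regulators it was 0 in edgeR, 2 with the DESeq2 test, 13 with the block and between 0 and 3 with single libraries left out (3 without control replicate 3). The share of genes with a shared iCLIP position, 20%, was 72.5% for at least 2 lists, 0% for an authors' p-value of at most 0.05 in each list, and 97.5%, 97.5% and 92.5% for any site in list 1, 2 or 3. It was 12.5% for exonic sites. Chosen after seeing the data, exon shares without control replicate 3 did not overlap for 63 exons in place of 24. The cause of these differences was not tested.

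Of 41 log2 fold changes (40 genes and MSI1), 19 kept their sign under all 10 alternatives, among them MSI1, SFRS4, SFRS13B and SFRS14. Those that turned were within 0.22 of 0 in the main test. Without control replicate 3, 6 values kept their sign and shrank by over 1.5 times, to −0.0094 for HNRNPA3, −0.022 for HNRNPR, −0.048 for HNRPLL, −0.048 for SFRS2B, −0.050 for HNRNPC and −0.14 for HNRNPA1L2. The DESeq2 test, DESeq2 size factors and no filter gave 0.0035, 0.0035 and 0.0026 for HNRNPK, 0.035, 0.035 and 0.035 for HNRNPUL1, 0.020, 0.020 and 0.020 for HNRNPUL2, 0.0075, 0.0074 and 0.0059 for SFRS18, and 0.018, 0.018 and 0.017 for SFRS2, each just below 0 in the main test. HNRNPUL1 was 0.0023 with the block. Leaving out single libraries gave −0.37 to 0.13 for HNRNPA1, −0.081 to 0.23 for HNRNPA2B1, −0.045 to 0.16 for HNRNPAB, −0.012 to 0.16 for HNRNPD, −0.0036 to 0.29 for HNRNPH2, −0.19 to 0.096 for HNRNPH3, −0.090 to 0.040 for HNRNPK, −0.13 to 0.013 for HNRNPM, −0.077 to 0.20 for HNRNPU, −0.12 to 0.13 for HNRNPUL1 and −0.052 to 0.071 for HNRNPUL2. It gave −0.32 to 0.052 for SFRS11, −0.24 to 0.075 for SFRS12, −0.26 to 0.20 for SFRS12IP1, −0.086 to 0.34 for SFRS16, −0.092 to 0.12 for SFRS18, −0.093 to 0.070 for SFRS2, −0.088 to 0.25 for SFRS2IP, −0.26 to 0.020 for SFRS3, −0.15 to 0.11 for SFRS6, −0.17 to 0.13 for SFRS7 and −0.099 to 0.21 for SFRS8.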
